A study of Mus musculus with 6 samples.

Results

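Cirbp and Rbm3, the cold-inducible RNA-binding protein genes, were followed through single-cell RNA libraries of the aged mouse lung. They are 2 of the 31054 features of each count matrix and were taken by gene symbol. They were selected on their UMI counts (unique molecular identifiers, each standing for 1 captured RNA molecule), compared between p16-DTR and control libraries, so that difference is described here without a test. Their levels among cell types were tested, since the choice did not rest on them. Related genes were tested on the same contrast, in lists chosen with earlier results of these data known.

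The lungs came from 6 male C57BL/6 mice of 21 months, with 1 library per mouse. The source of the 3 p16-DTR libraries was p16-CreERT2/R26-LSL-DTR mice, in which a tamoxifen-activated Cre recombinase under the control of p16 (Cdkn2a) switches on a receptor for diphtheria toxin. The 3 control libraries came from p16-CreERT2 mice, which carry the Cre but not the receptor. Mice of both groups received tamoxifen (TAM) for 5 days and, after an interval of 2 weeks, diphtheria toxin (DT) for 5 days, followed by 2 weeks of recovery. Lungs were digested with an enzyme mixture at 37 °C for 1 h and stained on ice for 30 min, and each library mixed 20000 sorted CD45-negative with 9000 CD45-positive cells.

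Cirbp and Rbm3 encode small proteins with a single RNA recognition motif followed by a glycine-rich tail. Both genes are known for rising when cells are cooled mildly below body temperature and falling when they are warmed, and their proteins bind many mRNAs and affect their splicing, polyadenylation, stability and translation. CIRBP also takes part in the response to ultraviolet light and other stress, and RBM3 is known for supporting protein synthesis in cooled cells. Circadian swings of body temperature are enough to move their expression, and CIRBP in turn acts on mRNAs of the circadian clock.

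Cirbp (ENSMUSG00000045193) lies on the plus strand at chr10:80165985-80172786 and Rbm3 (ENSMUSG00000031167) on the minus strand at chrX:8138975-8145880 (GRCm38, GENCODE M21, gene spans with exons, introns and UTRs). The annotation lists 7 transcripts for Cirbp and 11 for Rbm3. The coding sequence of the transcripts compared held 516 bases in Cirbp, for 172 amino acids, and 462 bases in Rbm3, for 154. Over 450 aligned bases they were 73.3% identical, but the longest identical run was 11 bases. The stretch that encodes RNP1, the short signature motif of the RNA recognition motif that contacts RNA, is shown because the genes are near kin and their counts depend on reads being told apart. It lies at bases 139 to 162 of both coding sequences, and the 6 bases that differ are in capitals.
Cirbp: cgAggCtttggGttTGtcaccttT
Rbm3: cgGggTtttggCttCAtcaccttC

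Promoter sequences of 2 Cirbp starts were at hand. The first is shown because a short element in such promoters, the mild-cold response element TCCCCGCC, has been described as a site through which cooling raises Cirbp. The 250 bases before the RefSeq start at 80167839 (GRCm38.p6, plus strand, chr10:80167589-80167838) follow, with that element in capitals.
Cirbp: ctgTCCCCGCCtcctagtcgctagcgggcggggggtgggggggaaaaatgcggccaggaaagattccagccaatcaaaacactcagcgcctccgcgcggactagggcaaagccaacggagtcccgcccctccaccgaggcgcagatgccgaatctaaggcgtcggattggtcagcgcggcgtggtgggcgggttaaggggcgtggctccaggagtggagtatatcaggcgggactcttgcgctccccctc
The element occurred once, 247 to 240 bases before the start. The same window held 3 GC boxes (GGGCGG) and 2 CCAAT boxes (CCAAT), with no overlap between the matches, and no match to the heat shock element core GAANNTTC. Both strands were searched. The 250 bases before the other start, at 80168171, held 4 GC boxes and no match to the other 3 motifs. Of 32851 RefSeq promoter windows of that length, 4.64% held the mild-cold element, 32.7% a GC box, 33.8% a CCAAT box and 6.69% the heat shock core. A match describes the letters and is no measurement of binding.

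The libraries held 254200305 to 344421685 UMIs, and 91156 cells of 94392 barcodes were retained, with library medians of 17091 to 18495.5 UMIs per cell. Library pairs shared 59 to 94 cell barcodes. Cells were assigned to classes by marker genes. A cell was kept in a class only if it met that gate and no other, which left 17.1% of cells in no class and 4.10% set aside for meeting several gates. Of 31 classes, 19 had at least 50 cells in every library. Ptprc, which encodes CD45, averaged 929 to 3672 CPM (UMIs per 1000000 UMIs of the cells concerned) in the leukocyte classes and 5.12 to 17.6 in the others. The gates used the class markers, so sums of those markers were largely bound to peak in their own class. They were highest there in 18 of the 19. The exception was the CD4 T cell gate, whose markers summed to 2498 CPM against 2516 in gamma-delta T cells. The general capillary and CD8 T cell gates stood 1.19-fold and 1.10-fold above the next class. Cdkn2a, whose expressing cells the toxin is aimed at, stood at 7.10, 8.57 and 7.31 CPM in p16-DTR-labelled libraries and at 1.15, 2.60 and 2.84 in controls, where all 3 were lower. This is opposite to the direction that loss of those cells would give, although gene counts do not separate p16 from the other transcript of Cdkn2a. No share of all genes higher without overlap is given beside it, and no other check of the labels is given here. Every direction below is therefore that of the libraries as labelled.

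Cirbp was lower in p16-DTR-labelled libraries, in nearly every kind of lung cell. Over all retained cells it stood at 49.4, 41.9 and 54.6 CPM in p16-DTR-labelled libraries 1, 2 and 3, and at 75.7, 70.9 and 73.2 in the controls. The highest of the p16-DTR values lay 16.3 CPM below the lowest control, and p16-DTR 2 was the lowest of all. The means were 48.6 ± 6.42 and 73.3 ± 2.38 (SD, n = 3 each), a log2 difference of -0.59 ± 0.12 (standard error), or 66.3% of the control level. In 17 of the 19 classes the groups did not overlap and p16-DTR was the lower one. Over all genes tested in these classes, 11.7% of gene and class pairs were lower without overlap, and in all cells 22.5% of genes. Since this contrast chose the gene, nothing is read from that excess.

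**Figure D1:**
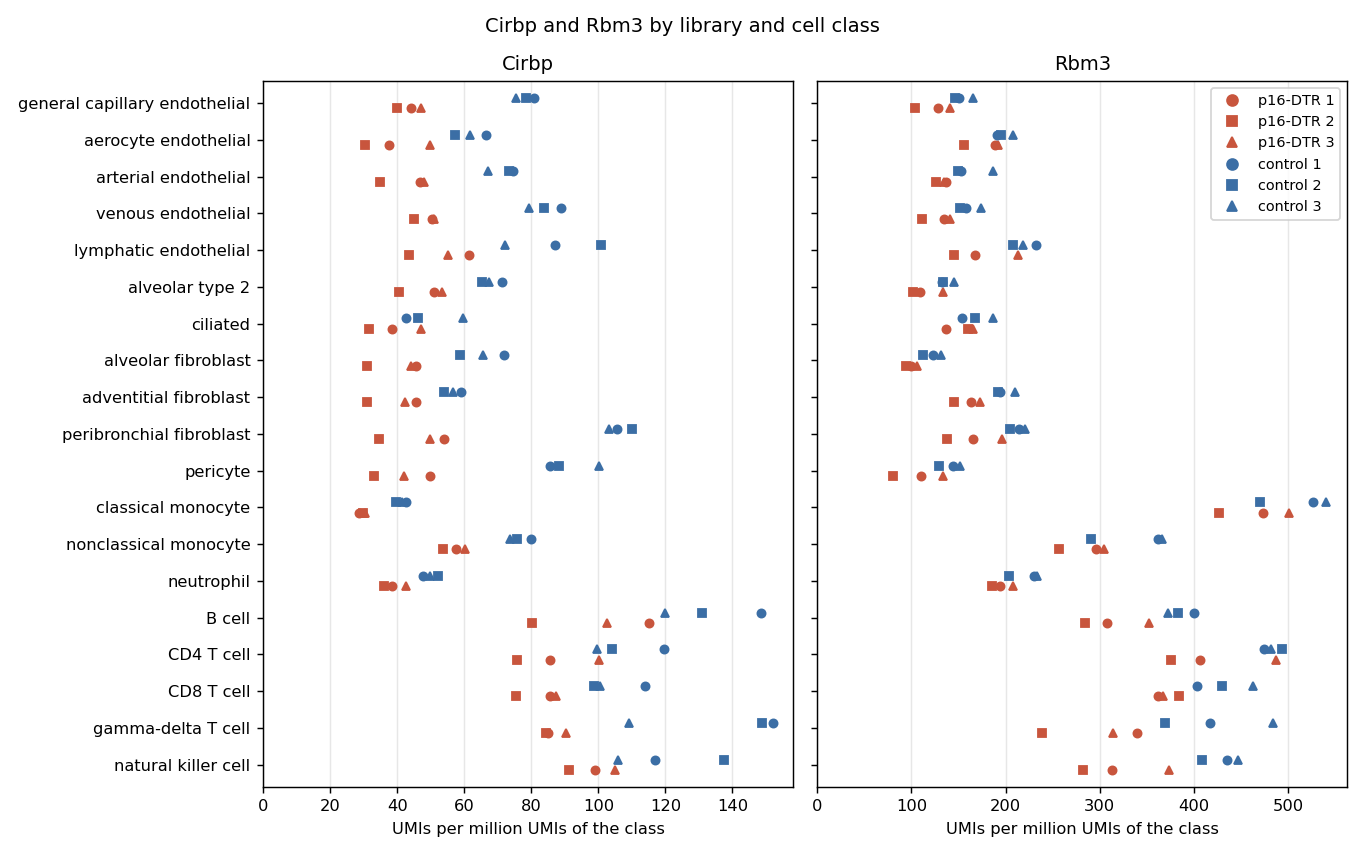
CPM of Cirbp (left) and Rbm3 (right) in each library (points, shaped by replicate number) and each of 19 marker-gated cell classes (rows), with control in blue and p16-DTR in red. For Cirbp the red points lie left of the blue ones in 17 rows, while for Rbm3 they do so in 10 rows, and the squares of p16-DTR 2 are mostly leftmost.

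The widest Cirbp differences were found in 2 of the 4 mesenchymal classes, the cells that build and support the lung's walls. Peribronchial fibroblasts had 54.1, 34.4 and 49.8 CPM in p16-DTR-labelled libraries and 106, 110.2 and 103 in controls, a log2 difference of -1.20 ± 0.20 (standard error). Pericytes, which wrap capillaries, had 49.9, 33.1 and 42.0 against 85.6, 88.4 and 100.3, a log2 difference of -1.13 ± 0.18. In both classes the controls were 2.19 to 2.30 times the p16-DTR mean, the farthest apart of the 19. Alveolar fibroblasts, the largest mesenchymal class, had 45.6, 31.1 and 44.2 against 72.0, 58.7 and 65.6, and adventitial fibroblasts 45.6, 31.1 and 42.4 against 59.0, 53.9 and 56.6. In control libraries the 4 mesenchymal classes spread from 56.5 to 106 CPM on average, and in p16-DTR-labelled libraries from 39.7 to 46.1. Of all genes tested, 15.9% were lower without overlap in alveolar, 8.26% in adventitial and 14.3% in peribronchial fibroblasts, and 7.12% in pericytes.

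The 5 endothelial classes, which line the vessels, had similar Cirbp differences, with log2 values from -0.84 to -0.65. General capillary endothelium, the class with the most cells, had 44.2, 40.0 and 47.0 CPM in p16-DTR-labelled libraries and 80.9, 78.3 and 75.5 in controls, so that the gap between the groups exceeded the range within either. Venous endothelium had 50.4, 45.1 and 50.9 against 88.8, 83.7 and 79.4. Aerocytes, the capillary cells specialised for gas exchange, had 37.7, 30.4 and 49.8 against 66.5, 57.3 and 61.8. All 5 classes were without overlap, as were 20.3% of all genes in the general capillary, 14.2% in the aerocyte, 10.0% in the arterial, 14.6% in the venous and 8.57% in the lymphatic class.

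In the 2 epithelial and 3 myeloid classes that were compared, the Cirbp log2 differences lay between -0.49 and -0.34. This range does not hold for classes with fewer than 50 cells in some library. Alveolar type 1 cells had -0.75 and secretory cells -0.93. Interstitial macrophages had -0.52, type 1 and type 2 conventional dendritic cells -0.52 and -0.61, alveolar macrophages -0.06 and basophils -0.03. Alveolar type 2 cells, which make surfactant, had 50.9, 40.5 and 53.5 CPM in p16-DTR-labelled libraries against 71.4, 65.3 and 67.4. Ciliated cells overlapped, with 38.6, 31.5 and 47.0 against 42.6, 46.2 and 59.7. Classical monocytes had the tightest values, 28.7, 29.8 and 30.6 against 42.6, 39.6 and 41.5, a log2 difference of -0.47 ± 0.04 (standard error). The share of all genes lower without overlap was 13.4% in alveolar type 2 cells, 8.14% in ciliated cells, 13.3% in classical and 7.36% in nonclassical monocytes, and 14.2% in neutrophils.

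The highest Cirbp levels were found in lymphocytes, where the groups came close or touched in B cells, CD4 T cells and natural killer cells. In CD8 T cells the lowest control lay 11.4 CPM above the highest p16-DTR value. B cells had 115, 80.3 and 103 CPM in p16-DTR-labelled libraries and 149, 131 and 120.0 in controls. CD4 T cells overlapped by little, with 100.1 in p16-DTR 3 and 99.7 in control 3. Natural killer cells had the smallest difference of the 19 classes, a log2 value of -0.29 ± 0.12 (standard error), with 99.0, 91.2 and 105 against 117, 137 and 106. Gamma-delta T cells stood farther apart, at 85.0, 84.5 and 90.4 against 152, 149 and 109, in 57 to 87 cells per library. The share of all genes lower without overlap was 12.2% in B cells, 11.7% in CD4, 7.44% in CD8 and 5.38% in gamma-delta T cells, and 6.87% in natural killer cells.

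Rbm3 was lower as well, by less and with more overlap. Over all retained cells p16-DTR-labelled libraries had 189.9, 174 and 222 CPM and the controls 203, 205 and 238, so p16-DTR 3 lay above 2 of the 3 controls. The log2 difference was -0.14 ± 0.13 (standard error), about the size of its error. Averaged over the 19 classes with equal weight, Rbm3 stood at 223, 199.9 and 244 in p16-DTR-labelled libraries and at 268, 255 and 284 in controls, without overlap, a log2 difference of -0.27. The 7 classes with the highest Rbm3 held 18.8, 23.1 and 28.0% of the classed cells in p16-DTR-labelled libraries and 15.5, 20.5 and 22.5% in controls, in libraries mixed to fixed numbers of sorted cells; the part of these shares in the smaller all-cell difference was not tested.

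Class means of Rbm3 were lower in p16-DTR-labelled libraries in 19 of 19 classes, and the groups did not overlap in 10, against 11.7% of all gene and class pairs. Gamma-delta T cells had the widest difference, with 339, 239 and 314 CPM against 417, 369.6 and 484 and a log2 value of -0.51 ± 0.19 (standard error). Natural killer cells had 313, 283 and 373 against 435, 408 and 447. B cells and CD8 T cells were also without overlap, CD8 T cells at 362, 385 and 367 against 403, 430.3 and 463. In CD4 T cells p16-DTR 3 reached 487 and lay among the controls of 474 to 494.

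Among stromal cells, Rbm3 was without overlap in alveolar, adventitial and peribronchial fibroblasts and in general capillary, arterial and venous endothelium. General capillary cells had 128, 104 and 141 CPM against 151, 146 and 165. Pericytes had 110.3, 80.5 and 133 against 144, 129 and 152, which overlapped through p16-DTR 3. Aerocyte and lymphatic endothelium, alveolar type 2 and ciliated cells, both monocyte classes and neutrophils overlapped too. Classical monocytes, where Rbm3 was highest, had 474, 427 and 501 against 526, 470.3 and 540.0, the log2 difference nearest to 0 of the 19 classes at -0.13 ± 0.09 (standard error). Leaving out p16-DTR 3 raised the classes without overlap from 10 to 16.

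**Figure D2:**
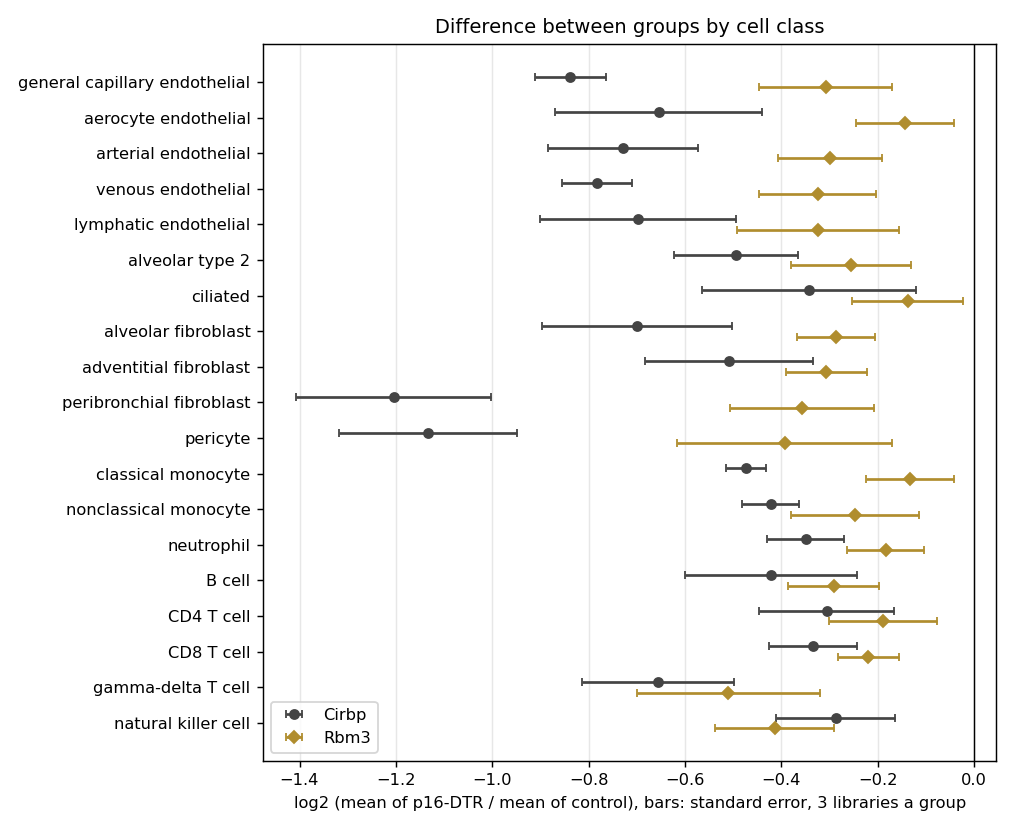
Log2 of the p16-DTR mean over the control mean for Cirbp (black circles) and Rbm3 (ochre diamonds) in each of 19 cell classes, with standard errors over 3 libraries a group. All points lie below 0, with Cirbp farther from 0 than Rbm3 in 18 classes, the exception being natural killer cells.

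The Cirbp difference was farther from 0 than the Rbm3 difference in 18 of 19 classes, with median log2 values of -0.51 and -0.29. Over the 19 classes the differences had a Pearson r of 0.46 as a description, as the classes share the same 6 libraries. Library p16-DTR 2 was the lowest of the 3 p16-DTR libraries in 18 classes for Cirbp and 17 for Rbm3. Library p16-DTR 3 was the highest in 13 and 16. The 12 classes with fewer than 50 cells in some library had lower means in the p16-DTR group in 12 of 12 for both genes.

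Of 3 other features of the libraries, only the median UMIs per cell separated the groups. Ribosomal protein genes took 6.29, 6.07 and 7.22% of UMIs in p16-DTR-labelled libraries and 5.54, 5.66 and 6.27% in controls, which overlapped. Mitochondrial genes took 1.61, 1.44 and 1.68% against 1.36, 1.50 and 1.51%, which overlapped too. Median UMIs per cell were 17251, 17439 and 17091 against 18495.5, 17745 and 17702, all lower in p16-DTR. With ribosomal and mitochondrial genes out of the total, the all-cell log2 differences were -0.58 for Cirbp and -0.13 for Rbm3.

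With every cell thinned to 5000 UMIs, a Cirbp UMI was found in 19.1 to 24.0% of cells of p16-DTR-labelled libraries and 30.1 to 31.2% of control cells. Rbm3 was found in 49.7 to 57.3% and 55.9 to 60.7%. Without thinning the Cirbp ranges were 46.2 to 54.2% and 62.3 to 65.2%, and those of Rbm3 77.8 to 82.1% and 82.6 to 83.8%. Thinning left out 5200 of 45200 p16-DTR cells and 5325 of 45956 control cells. Both genes are broadly expressed, so no class serves as a blank. The lowest class for Cirbp was the classical monocyte, with 13.7% in p16-DTR and 17.9% in control, and for Rbm3 the alveolar fibroblast, with 37.7 and 43.7%. Within a class and library, single cells showed little relation between the genes, with a median correlation over cells of 0.05 across 114 class and library pairs, and counts this sparse make that no finding.

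The next comparison asked which cell classes carry more or less of each gene, whatever the group. Each class was set against the median of the other 18 in the same library on the log2(CPM + 1) scale, with an exact two-sided sign-flip permutation test over the 6 libraries. The smallest p this allows is 0.03125, and adjusted (Benjamini-Hochberg) over the 38 comparisons it is 0.0424. Every call below has that value, with all 6 libraries on the same side.

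Cirbp was above the other classes in 6 classes and below them in 7. The 5 lymphocyte classes stood highest, led by B cells at 0.94 ± 0.18 (SD, n = 6) on the log2 scale above the median of the others. Natural killer and gamma-delta T cells followed, both at 0.86, then CD4 T cells at 0.69 and CD8 T cells at 0.64. Venous endothelium was the other class above, at 0.11. Classical monocytes were the lowest at -0.79 ± 0.21 (SD, n = 6), followed by ciliated cells at -0.48, neutrophils at -0.46, adventitial fibroblasts at -0.37, aerocytes at -0.32, alveolar fibroblasts at -0.26 and arterial endothelium at -0.14. The highest class mean was 3.28 times the lowest.

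Rbm3 was above the other classes in 8 classes, all of them leukocytes, and below them in 7 stromal and epithelial classes. Classical monocytes stood highest at 1.38 ± 0.10 (SD, n = 6), CD4 T cells at 1.27, CD8 T cells at 1.09, natural killer cells at 0.99, gamma-delta T cells at 0.91, B cells at 0.89, nonclassical monocytes at 0.73 and neutrophils at 0.16. Alveolar fibroblasts were lowest at -0.82 ± 0.07 (SD, n = 6), followed by pericytes at -0.68, alveolar type 2 cells at -0.65, general capillary, venous and arterial endothelium at -0.50, -0.44 and -0.42, and adventitial fibroblasts at -0.14. The highest class mean was 4.40 times the lowest. Classical monocytes thus had the highest Rbm3 and the lowest Cirbp of the 19 classes, and over class means the genes had a Pearson r of 0.47 (19 classes, a description).

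**Figure D3:**
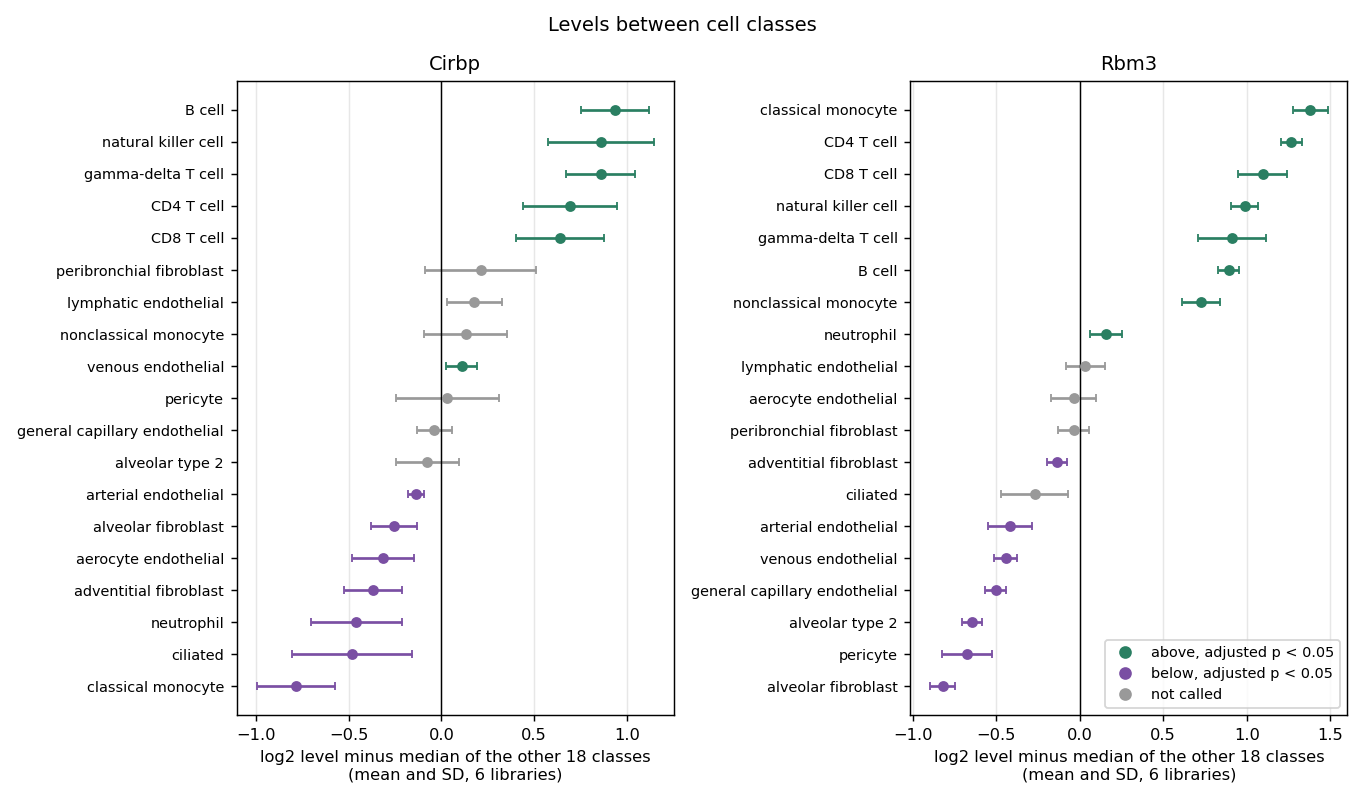
Log2 level of Cirbp (left) and Rbm3 (right) in each cell class minus the median of the other 18 classes, as mean and SD over 6 libraries; green and purple mark classes above and below at an adjusted p under 0.05. Lymphocytes lead for Cirbp and classical monocytes for Rbm3, while classical monocytes are the lowest class for Cirbp.

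Of 18 neighbouring pairs in these orders, all 6 libraries kept the order in 1 pair for Cirbp and in 5 for Rbm3. None passed after adjustment over 36 pairs (exact sign-flip permutation test, smallest adjusted p 0.1875), but 6 libraries cannot give a p below 0.03125, so this design could hardly pass and does not show that neighbours are alike. The widest step between neighbours was that of Rbm3 from nonclassical monocytes to neutrophils, 0.57 ± 0.07 (SD, n = 6) on the log2 scale. For Cirbp the order of the means differed between the groups. Peribronchial fibroblasts ranked 5 of 19 in controls and 10 in p16-DTR-labelled libraries, pericytes 7 and 13, nonclassical monocytes 11 and 6, alveolar type 2 cells 13 and 9, and gamma-delta T cells 1 and 4. The other 14 classes moved by at most 1 rank.

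Genes with the most similar pattern were sought among 8030 others with at least 20 CPM on average. Over the 19 class means, the 5 most like Cirbp were Rfx7, Rbm27, Dhx9, Lax1 and Cnbp, with Pearson r of 0.89, 0.89, 0.89, 0.88 and 0.87. The 5 most like Rbm3 were Btf3, Snrpe, Pycard, Pabpc1 and Polr1d, with r from 0.93 to 0.96. Rbm3 itself was only the 1628th most like Cirbp on this measure.

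Once each class's own mean was taken out, the genes stood near each other. The 114 library and class values share 6 libraries and hold the group difference that chose both genes. Over these values Cirbp was the gene most like Rbm3, with r of 0.75. Among the genes most like Cirbp were Srsf5, Rbm3, Zc3h6 and Pnrc1, at 0.77, 0.75, 0.73 and 0.68. Hnrnpd, Hnrnpl and Ewsr1 were among those most like Rbm3, at 0.65, 0.64 and 0.61. Srsf5 encodes a splicing factor, Hnrnpd and Hnrnpl ribonucleoproteins that act on mRNA decay and splicing, and Ewsr1 another RNA-binding protein. Srsf5 stood at 457, 392 and 428 CPM in p16-DTR-labelled libraries and at 500.2, 469 and 458 in controls, apart by less than 1 CPM. Of all genes, 22.5% were lower without overlap in all cells. The similar genes were picked on values that hold the group difference, so nothing is read from their separation.

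**Figure D4:**
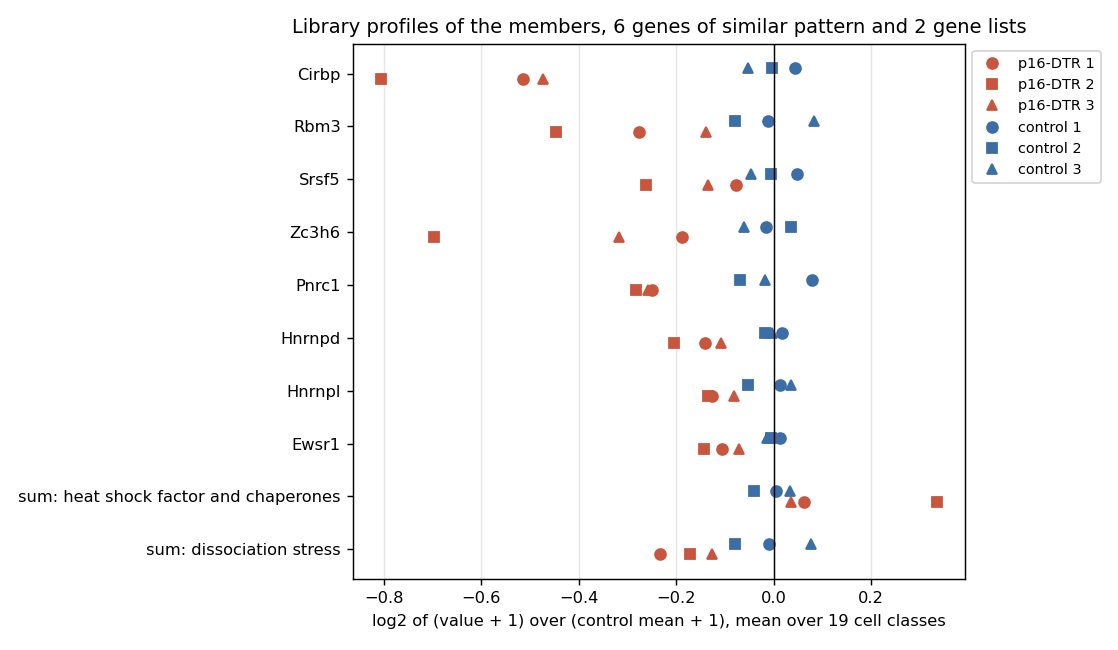
For each library, the log2 of its value over the control mean, averaged over 19 cell classes, for Cirbp, Rbm3, 6 other genes of similar pattern across libraries and the summed levels of 2 gene lists; control is blue, p16-DTR red, with shapes by replicate number. The square of p16-DTR 2 is lowest for Cirbp, at -0.81, and highest for the chaperone list, at 0.33.

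Other genes were tested with edgeR, which called 0.597% of 229649 gene and class pairs at an adjusted p under 0.05, 0.23% higher and 0.367% lower in p16-DTR-labelled libraries. The share called was 4.56% in CD4 T cells, 3.44% in venous endothelium, 1.05% in peribronchial fibroblasts, 0.64% in general capillary, 0.623% in aerocyte and 0.196% in lymphatic endothelium. It was 0.0964% in neutrophils, 0.0919% in natural killer cells, 0.0907% in arterial endothelium, 0.0771% in alveolar type 2 and 0.0663% in ciliated cells, 0.065% in alveolar fibroblasts, 0.0171% in CD8 T cells and 0.00749% in adventitial fibroblasts. None was called in the other 5 classes or in all cells by edgeR, where 5043 genes in all cells had an unadjusted p under 0.05 and DESeq2 called 2751.

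In a list of 32 kindred RNA-binding protein genes (heterogeneous nuclear ribonucleoproteins, RBM proteins and others), all were tested with edgeR's quasi-likelihood test over all genes, and 1 pair was called higher and 2 lower. Tia1, a stress granule protein gene, rose in venous endothelium, from 53.8 ± 3.69 to 67.2 ± 3.36 CPM (SD, n = 3 each; log2 fold change 0.34, SE 0.07, adjusted p 0.0493 by edgeR), and in none of the fits that left out 1 library. The list's 3 called pairs of 586 were 0.512%, near the share of all pairs, and its median log2 fold change of -0.02 compares with 0.00 over all pairs. At an unadjusted p under 0.05 by edgeR, 13 pairs were higher and 61 lower. No share of all pairs at that unadjusted p is given, here or for the lists below, so nothing is read from such counts. The list's summed level was lower without overlap in 10 of 19 classes and higher in 0. No share over other gene sums was computed for such counts, here or for the lists below, so they are a description.

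In the list of CLK kinases and SR splicing factors, which pass body temperature on to splicing, 1 of 380 pairs was called. Tra2b fell in venous endothelium, from 269.7 ± 26.2 in controls to 199 ± 3.64 CPM (SD, n = 3 each; log2 fold change -0.42, SE 0.08, edgeR adjusted p 0.0317), and in 1 of the fits that left out 1 library. None rose by edgeR, where 21 pairs were higher and 43 lower at an unadjusted p under 0.05. DESeq2 called 0 higher and 13 lower, and over all gene and class pairs 2698 higher and 3457 lower. The list's summed level in all cells was 3241, 3232 and 3246 CPM in p16-DTR-labelled libraries and 3448, 3418 and 3461 in controls, a narrow but complete separation. Within classes this sum was lower without overlap in 13 of 19 and higher in 0.

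Chaperone genes, which rise on warming and protein damage, leaned the other way. The median log2 fold change of the heat shock list was 0.18 over 510 pairs, and 28.2% of its pairs were below 0 against 50.2% of all pairs. Few were called by edgeR, 1 higher and 3 lower, while DESeq2 called 49 higher and 9 lower. The edgeR calls became 8 higher and 0 lower with the replicate number as a block, and 7 higher and 1 lower without p16-DTR 1. The other fits that left out 1 library called 0 or 1 higher and 0 to 2 lower. Hsph1 rose in peribronchial fibroblasts, from 20.5 ± 4.60 to 49.5 ± 12.7 CPM (SD, n = 3 each; log2 fold change 1.32, SE 0.22, edgeR adjusted p 0.0366), a call kept in 1 of the 6 fits that left out 1 library. Dnajb4 and Bag3 fell in venous endothelium, with log2 fold changes of -0.79 and -0.29 and edgeR adjusted p of 0.021 and 0.0337, kept in 3 and 0 of those fits.

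The summed chaperone level singled out 1 library. It was 6242, 7593 and 5922 CPM in p16-DTR-labelled libraries and 6182, 5930 and 6226 in controls, so p16-DTR 2 stood above the rest, p16-DTR 1 just above the controls and p16-DTR 3 just below them. Within classes the sum was higher in p16-DTR-labelled libraries without overlap in 9 of 19, and averaged over the classes all 3 lay above every control, by log2 values over the control mean of 0.06, 0.33 and 0.04 against 0.03 at most. p16-DTR 2 had the highest chaperone sum in 18 of 19 classes. It is also the library with the lowest Cirbp and Rbm3 in most classes. Without p16-DTR 2, Cirbp was lower without overlap in 17 classes and Rbm3 in 10. Leaving out this library could hardly change those counts, since it was the highest p16-DTR library in 0 classes for Cirbp and 1 for Rbm3. The counts thus do not show what p16-DTR 2 adds to the differences.

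Immediate early genes, which switch on during tissue dissociation as well as after signals in the animal, leaned lower in p16-DTR-labelled libraries, but not in every class. Their median log2 fold change was -0.16 over 371 pairs. It was above 0 in classical (0.12) and nonclassical monocytes (0.17), B cells (0.13) and neutrophils (0.04). In this list of 20 genes 21 of 371 pairs fell (5.66%, against 0.367% of all pairs called lower) and none rose by edgeR, where 32 were higher at an unadjusted p under 0.05 and DESeq2 called 11 higher. Egr1 fell in 5 classes, among them CD4 T cells, from 148 ± 31.6 to 55.5 ± 12.5 CPM (SD, n = 3 each; log2 fold change -1.45, SE 0.19, edgeR adjusted p 0.00879). Nr4a1 fell in CD4 T cells (-0.86, SE 0.08, adjusted p 0.0033) and in venous endothelium (-1.40, SE 0.11, adjusted p 0.0034), and Junb fell in CD4 T cells (-0.41, SE 0.05, adjusted p 0.00632). These 4 calls were kept in all 6 fits that left out 1 library, but the adjusted p of Egr1 reached 0.283 under another alternative. The other Egr1 calls, in general capillary, arterial, venous and lymphatic endothelium, were kept in 2, 2, 5 and 2 of those fits. Junb also fell in venous and lymphatic endothelium, each kept in 1 fit, and Zfp36 in venous and lymphatic endothelium and ciliated cells, kept in 5, 1 and 2. Single libraries moved this count to 7 (p16-DTR 3 left out), 10 (control 1), 12 (control 3) and 35 (control 2).

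The list's summed level was 11524, 11722 and 11040.4 CPM in p16-DTR-labelled libraries and 14906, 12312 and 14036 in controls. The groups were apart in that direction in 8 classes and the other way in 2. Its part in the Cirbp and Rbm3 differences was not tested.

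Circadian clock genes, among them mRNAs that CIRBP is reported to act on, gave 9 called pairs of 373, 2 higher and 7 lower. That was 2.41%, against 0.597% of all pairs, with a median log2 fold change of -0.01. Of the 7 lower calls, 6 were in CD4 T cells, where 4.56% of all genes were called. With 1 library left out, none of the list was called higher, and the lower calls numbered 2 (without p16-DTR 2), 3 (control 1), 4 (control 3 or p16-DTR 3), 6 (control 2) and 8 (p16-DTR 1). The list's summed level was 1461, 1550.4 and 1458 CPM in p16-DTR-labelled libraries and 1749, 1575 and 1630.2 in controls, lower without overlap, as it was in 6 of 19 classes. The sums of the kindred RNA-binding, hypoxia and cold or glucocorticoid lists overlapped in all cells. Within classes, without overlap, the kindred sum was lower in 10 of 19 and higher in 0, and the hypoxia sum lower in 1 and higher in 3. The cold or glucocorticoid sum was lower in 0 and higher in 7. Npas2, a partner of the clock's activator, fell in venous endothelium from 18.3 ± 1.93 to 5.71 ± 1.08 CPM (SD, n = 3 each; log2 fold change -1.67, SE 0.16, edgeR adjusted p 0.00608). Hlf, a clock output factor, fell in CD4 T cells from 64.6 ± 10.4 to 25.0 ± 5.59 (log2 fold change -1.42, SE 0.18, adjusted p 0.00734). Both were kept in all 6 fits that left out 1 library. Nr1d1, a repressor of the clock, fell in CD4 T cells (-2.13, SE 0.48, adjusted p 0.0496), although its log2 fold change was above 0 in 16 of the 18 classes tested. Ciart rose in venous endothelium (0.47, SE 0.10, adjusted p 0.0478). The first of these was kept in 1 fit and the other in none.

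The hypoxia list, of genes that respond to low oxygen as Cirbp and Rbm3 are reported to, gave 5 higher and 4 lower pairs of 410. That was 2.2%, against 0.597% of all pairs, with a median log2 fold change of 0.06. In venous endothelium, where 3.44% of all genes were called, 2 of the list's 22 genes were called higher and 1 lower. In general capillary endothelium, with 0.64% of all genes called, 1 of 23 was called higher and 1 lower. The list's calls became 0 higher and 1 lower without p16-DTR 3, 1 and 1 without control 1, 2 and 1 without p16-DTR 1, 2 and 2 without p16-DTR 2, and 2 and 3 without control 2. P4ha2, a collagen prolyl hydroxylase, rose in general capillary (0.60, SE 0.08, edgeR adjusted p 0.043) and venous endothelium (0.70, SE 0.12, adjusted p 0.0279). Adm, a vasodilator peptide, fell in the same 2 classes, by 1.24 and 1.73 on the log2 scale (edgeR adjusted p 0.037 and 0.0456), from low levels of 3.26 and 3.20 CPM in controls. Ddit4, an inhibitor of mTOR signalling, rose in neutrophils (0.70, SE 0.09, adjusted p 0.0422) and Egln3, an oxygen sensor, in peribronchial fibroblasts (1.09, SE 0.21, adjusted p 0.0469). Each of these calls was lost in at least 4 of the 6 fits that left out 1 library. The list's other calls fell on genes outside the naming rule given below. The call lower in CD4 T cells was kept in all 6 fits. The call higher in venous endothelium was kept in 4, and the call lower in natural killer cells in 1.

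Reported targets and regulators of the members, such as Txn1, Rpa2 and Sp1, gave no call in 184 pairs by edgeR; at an unadjusted p under 0.05 11 were higher and 10 lower, and DESeq2 called 2 higher. Their summed level was 1183, 1159 and 1188 CPM in p16-DTR-labelled libraries and 1096, 1136 and 1121 in controls, higher without overlap, as it was in 3 of 19 classes. Among 14 other genes that respond to cold, fasting or glucocorticoids, 12 were tested and 2 of 144 pairs were called (1.39%, against 0.597% of all pairs). The list leaned higher, with a median log2 fold change of 0.20 and 29.9% of its pairs below 0 against 50.2% of all pairs. Tsc22d3, a glucocorticoid-induced gene, rose in aerocytes from 154 ± 21.6 to 246 ± 34.0 CPM (SD, n = 3 each; log2 fold change 0.71, SE 0.12, edgeR adjusted p 0.0395; kept in 1 of 6 fits), and its groups were apart in that direction in 12 of 19 classes. No share of all genes higher without overlap is given here, so nothing is read from that count. Per1, a clock gene that is also glucocorticoid-induced, fell in CD4 T cells (-0.49, SE 0.08, adjusted p 0.0161; kept in 5 of 6 fits).

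The genes beside the members on the chromosome were looked at as well. Next to Cirbp, 1600002K03Rik begins 158 bases beyond its end and averaged 12.7 ± 0.729 CPM in p16-DTR-labelled libraries and 11.8 ± 0.422 in controls (SD, n = 3 each), and Midn 79.7 ± 4.38 and 87.6 ± 0.701. Midn was lower without overlap in all cells and in 4 of 19 classes, while 1600002K03Rik overlapped in all cells. Neither was called in any class by edgeR. Efna2, the next gene on, stood at 2.37, 2.94 and 2.07 CPM in p16-DTR-labelled libraries and at 5.31, 3.41 and 3.48 in controls, 60.5% of the control mean, and fell in venous endothelium (log2 fold change -1.53, SE 0.32, edgeR adjusted p 0.0444). Efna2 was lower without overlap in all cells and in 6 classes. Rbm3os, an antisense gene that overlaps the start of Rbm3, had 592 UMIs in all 6 libraries together against 51342 or more for Rbm3 in each. Whether the counting used strand is not given in the sources used here, so reads shared by Rbm3 and Rbm3os cannot be told apart. Of the genes that flank Rbm3, Wdr13 averaged 16.7 ± 0.177 CPM in p16-DTR-labelled libraries against 19.3 ± 0.724 (SD, n = 3 each), lower without overlap, and Tbc1d25 6.22 ± 0.0791 against 6.57 ± 0.504, which overlapped. Wdr13 was also lower without overlap in 7 classes. Over all genes, 22.5% were lower without overlap in all cells, as were 11.7% of gene and class pairs.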

How the data were processed

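Single-cell libraries (10x Chromium droplets, 3' chemistry, per the labels' protocols) gave 1 matrix per mouse. Deposited values are raw counts of UMIs for each gene in each barcode; per the file headers, Cell Ranger 8.0.1 wrote them. The build was mm10, per the submitters' processing notes, and the annotation release and intron counting are not given in the sources used here. Retained barcodes had at least 300 genes, at least 500 UMIs and no more than 15% mitochondrial counts. Cells entered 1 of the 19 compared classes with 4 or 5 of its markers at 1 or 2 UMIs or more (3 to 5 in the 12 smaller classes), with 1 gene required and some genes absent for certain classes; cells meeting several gates were left out in place of a doublet caller. Gate thresholds were set after marker counts were seen. Classes are rebuilt from markers, not the authors' annotation.

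Counts were summed per library and class and scaled to CPM (UMIs per 1000000). Between groups the members have no test. Other genes were tested with edgeR 4.0.16 (quasi-likelihood, filterByExpr, TMM, Benjamini-Hochberg within a class at 0.05; R 4.3.3) on summed counts, design group alone. The edgeR fit was tried on simulated counts for all cells and B cells, with the same spread set for every gene. That does not show how stable the calls on these libraries are. Class levels used exact sign-flip tests (scipy 1.17.1). Standard errors of the members' log2 ratios come from log2 values of 3 libraries a group. The SE of an edgeR fold change is its absolute log2 value over the square root of the test's F statistic. Precision is limited by counts: Cirbp had 28 to 8539 UMIs per class and library and Rbm3 68 to 14590.

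The members and gene lists were chosen with earlier results of these data known. Named genes are the members, up to 4 genes per list with the most called classes in 1 direction (ties by mean absolute log2 fold change), and the 5 genes most like each member over class means and over library-by-class values; some of them are not reported here. Alternatives were other scalings, denominators and cell weights, stricter cells (1000 UMIs, 5% mitochondrial) or gates, DESeq2 1.42.0, no filter, the replicate number as a block and each library left out.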

Additional observations from a re-analysis of the deposited data

How the results depend on the processing

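Cirbp was lower without overlap in 16 to 18 classes under the 6 alternatives that kept all libraries unpaired, and in 17 to 19 with 1 library left out. Leaving out a library can only keep or raise a count of classes without overlap, so the latter range is no check of stability. Its all-cell log2 difference lay between -0.68 and -0.49, and that of Rbm3 between -0.25 and -0.07. All 247 class differences of each gene under alternatives stayed below 0. The Rbm3 count of 10 classes without overlap ranged from 10 to 16 with 1 library left out (16 without p16-DTR 3), and could not fall either. The counts of classes above or below the median of the others changed by at most 1 under the 4 alternatives that kept all libraries. With 1 library left out there is no such test, and the counts of classes with all 5 libraries on that side were 6 to 7 above and 7 below for Cirbp, and 8 above and 7 to 8 below for Rbm3. These counts, too, could only stay or rise. The replicate numbers were not shown to pair the mice: same-numbered libraries had correlations of deviations from -0.30 to 0.31, and in 0 of 20 units were all pairs above 0.1. With the replicate number as a block, 18 classes had each p16-DTR library below the control of its number for Rbm3, and edgeR called 1333 gene and class pairs against 1372, of which 729 were shared.

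The edgeR counts were unstable. DESeq2 called 6155 pairs, and 7189 were called with no filter on low counts; with 1 library left out the count ranged from 244 to 1402 (244 without p16-DTR 3, 480 without control 1, 538 without control 3, 788 without p16-DTR 2). For the related lists the 48 called pairs became 224 with DESeq2, 273 with no filter and 30 with the stricter gate, and ranged from 13 to 53 with 1 library left out (13 without p16-DTR 3, 18 without control 1, 24 without control 3, 28 without p16-DTR 2). The share of calls that were higher was 38.6%, and 44.8% without p16-DTR 1 and 30.1% without control 2. The cause was not tested. Depth limits the small classes: pericytes had as few as 28 Cirbp UMIs in a library, and counts near that cannot separate differences smaller than their counting error.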
